A study of Mus musculus with 295 samples.

Results

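Fat from mice with high Ucp1 was set against fat from mice with low Ucp1, within the mice of 1 F2 cross that had low Eif2s3y. Eif2s3y is a Y-chromosome gene for a subunit of a translation initiation factor. The labels say that both sexes were used but not which mouse is of which sex, so the mice are named here by the measured gene alone. Of 295 mice, 142 had a deposited Eif2s3y value below -0.6, read here as a log10 ratio. These Eif2s3y-low mice were ranked by the array's 1 Ucp1 probe, and the members were chosen by that measured value: the upper and lower 20%, 28 mice each, form the Ucp1-high and the Ucp1-low side. The other 86 lie between the sides. Every gene except Ucp1 was then compared between the sides.

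All mice in both sides were F2 offspring of the inbred strains C57BL/6J and C3H/HeJ, both null for ApoE, and all were kept on a Western diet, rich in fat, between weeks 8 and 24 of life. The F2 generation carries a different mix of parental alleles in each mouse, and the labels name neither the genotypes nor the fat depot. One array was made per mouse, with the mouse's RNA in Cy3 against a pool of all the RNAs in Cy5. Each value was read as a log2 ratio of mouse to pool, where 0 would be the pool's level and 1 a doubling, and it says nothing of how abundant a transcript is. Arrays give no read depth, and the number of arrays sets the precision. The sources used here state neither the base, the zero nor the direction of the deposited ratios. Fold sizes rest on reading them as log10, and levels against the pool and the names high and low rest on reading them as mouse over pool. Calls between the full sides and correlations do not depend on the base, and whether a gene goes with or against Ucp1 would be the same in the other direction. In the checks below that leave out arrays, the cut at a list mean of 1 rests on the base. Each such cut rests on the zero and the direction.

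Brown fat burns fatty acids for heat. Its mitochondria hold UCP1, a carrier that lets protons back across the inner membrane without making ATP. Cold and sympathetic nerves switch the programme on through cyclic AMP, the coactivator PGC-1α and the thyroid hormone made locally by the deiodinase DIO2. White depots can gain scattered UCP1-positive cells, called beige or brite cells, and a dissected white depot can also carry neighbouring brown fat. Whole-tissue RNA cannot tell more cells of a type from more RNA per cell, and this holds for every result below.

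The values that formed the sides are a description and were not tested. Ucp1 ran from 1.375 to 2.98 with a median of 1.76 in the Ucp1-high mice and from -3.67 to -0.77 with a median of -1.59 in the Ucp1-low mice. The side means of 1.94 ± 0.45 and -1.74 ± 0.72 (SD, n = 28 each) lie 3.68 apart, a 12.8-fold difference. At the upper edge the last mouse inside and the first outside both read 1.375, and at the lower edge they read -0.7705 and -0.7619, so the edges cut through a continuous spread. Eif2s3y ran no higher than -4.16 in the 142 mice and no lower than -0.10 in the other 153. The sides shared that range, with medians of -5.42 and -5.43.

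Letmd1, Fabp3 and Cox7a1 are 3 of the 8 genes that rose with Ucp1 both between the sides and in the mice between them. Their promoters and that of Ucp1 are shown. Each is the 250 bases before the RefSeq transcript start, 5′ to 3′ on the gene's strand, in GRCm38.p6. Capitals mark AGGTCA or its complement TGACCT, the half-site that PPAR and related nuclear receptors can bind. The windows are chr8:83290098-83290347 for Ucp1, chr15:100468761-100469010 for Letmd1, chr4:130308488-130308737 for Fabp3 and chr7:30183921-30184170 for Cox7a1, all on the plus strand.
Ucp1: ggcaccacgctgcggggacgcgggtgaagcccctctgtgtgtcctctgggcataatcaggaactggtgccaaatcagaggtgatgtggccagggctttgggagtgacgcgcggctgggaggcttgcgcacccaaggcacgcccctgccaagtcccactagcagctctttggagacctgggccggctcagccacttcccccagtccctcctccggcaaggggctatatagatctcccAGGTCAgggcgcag
Letmd1: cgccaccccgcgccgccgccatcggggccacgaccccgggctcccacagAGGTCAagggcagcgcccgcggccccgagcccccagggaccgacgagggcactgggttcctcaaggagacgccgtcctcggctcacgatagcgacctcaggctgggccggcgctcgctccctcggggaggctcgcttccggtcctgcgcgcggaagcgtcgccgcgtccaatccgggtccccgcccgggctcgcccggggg
Fabp3: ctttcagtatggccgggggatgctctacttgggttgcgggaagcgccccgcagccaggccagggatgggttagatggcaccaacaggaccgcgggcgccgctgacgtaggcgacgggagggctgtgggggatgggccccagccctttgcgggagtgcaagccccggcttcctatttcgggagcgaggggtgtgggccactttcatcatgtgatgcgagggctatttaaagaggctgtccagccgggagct
Cox7a1: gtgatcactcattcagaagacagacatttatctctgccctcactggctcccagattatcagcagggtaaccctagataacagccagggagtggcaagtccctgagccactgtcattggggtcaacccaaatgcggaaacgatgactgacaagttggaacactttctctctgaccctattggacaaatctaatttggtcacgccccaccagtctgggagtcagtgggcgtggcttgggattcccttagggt

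Ucp1 had 1 such half-site, whose first base lay at -14 from the start, and Letmd1 had 1 at -201. The windows of Fabp3 and Cox7a1 had none, and neither had those of Otop1, Gpd2 and Acot11. Cpt1b was not matched to the promoter table. Among 27025 promoters of this length in the RefSeq set, 13.8% hold the half-site. Among the measured genes it is 11.7% of 8436, among the genes that rose 15.9% of 126, and among those that fell 15.8% of 114. A match is a string of letters and not a shown binding site.

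With the sides formed on Ucp1, 159 of 11453 genes were higher in the Ucp1-high mice (1.39%) and 149 were lower (1.30%) at an adjusted p under 0.05 (limma, Benjamini-Hochberg over all probes). In probes these were 296 (1.29%) and 231 (1.01%) of 22893. Differences of at least 1 log2 unit were reached by 18 of the higher and 11 of the lower genes, and the median over all genes was -0.0029. No gene separated the sides completely: the highest Ucp1-low mouse overlapped the lowest Ucp1-high mouse for each of the 11453. The sides are cut from measured values on the same arrays, so these tests show which genes go along with Ucp1, not what a treatment did. Labels name each mouse as a separate animal.

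Cidea, a lipid droplet protein that marks brown adipocytes, followed Ucp1 most closely. Its log2 ratio ran from 0.36 to 2.25 with a median of 1.42 in the Ucp1-high mice, and from -2.73 to 0.47 with a median of -1.09 in the Ucp1-low mice. All but 1 of the 28 Ucp1-high mice lay above the highest Ucp1-low mouse. The difference was 2.53 ± 0.15 (SE), or 5.78-fold (limma, adjusted p = 2.89e-19).

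Of 31 measured brown fat identity genes, 13 rose and 0 fell, with a median difference of 0.29. Over all genes, 1.39% rose and 1.30% fell. This list and the others below were chosen with earlier results of these data known, so their counts are not independent of the data. The 13 cover the cyclic AMP and thyroid hormone arm (Dio2), the coactivators (Ppargc1a and Ppargc1b), a fatty acid receptor (Ppara) and parts of the mitochondrion and cell surface (Cox7a1, Cox8b, Letmd1, Otop1, Clstn3). Cidea, Pank1 (coenzyme A synthesis), Elovl3 (fatty acid elongation) and S100b complete them.

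Among the regulators, Ppara, the nuclear receptor for fatty acids, ran from 0.17 to 2.25 (median 0.98) on the high side and from -1.12 to 0.96 (median -0.27) on the low side. Its difference was 1.26 ± 0.13 (limma, adjusted p = 7.95e-10), and 14 of 28 Ucp1-high mice lay above every Ucp1-low mouse. Ppargc1a, which encodes PGC-1α, ran from -0.27 to 1.82 (median 0.66) against -1.09 to 0.90 (median -0.26), a difference of 0.95 ± 0.13 (adjusted p = 1.13e-06). The ranges overlapped more for this coactivator, with 12 of 28 above the highest low mouse. Ppargc1b differed by 0.66 ± 0.13 (limma, adjusted p = 0.00239).

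Dio2 was the most uneven of the 13. It ran from -1.25 to 4.03 (median 0.09) on the high side and from -2.31 to 1.78 (median -1.28) on the low side. The difference was 1.61 ± 0.29 (limma, adjusted p = 0.000637), yet only 4 of 28 Ucp1-high mice lay above the highest Ucp1-low mouse. A few Ucp1-high mice with ratios above 3 carry part of that mean, and the side's SD was 1.30.

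The respiratory chain isoforms of brown fat and muscle also rose. Cox7a1, a cytochrome c oxidase subunit, ran from 0.13 to 2.81 (median 1.23) against -1.67 to 0.75 (median -0.19), a difference of 1.47 ± 0.13 (limma, adjusted p = 5.98e-12). Cox8b, another subunit of the same enzyme, ran from 0.11 to 2.08 (median 0.94) against -1.05 to 1.06 (median -0.02), a difference of 1.11 ± 0.14 (adjusted p = 3.09e-07). Counting mice above the whole low side gave 22 of 28 for Cox7a1 and 11 of 28 for Cox8b.

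Letmd1, an inner membrane protein of mitochondria, ran from -0.12 to 1.38 (median 0.52) against -0.61 to 0.47 (median -0.15), and differed by 0.63 ± 0.08 (limma, adjusted p = 1.08e-06). Otop1, a proton channel, ran from -0.47 to 1.93 (median 0.49) against -2.33 to 0.20 (median -0.58), and differed by 1.19 ± 0.14 (adjusted p = 1.11e-08). A second Otop1 probe differed by only 0.10 (adjusted p = 0.681) and had an r of -0.14 with the first over the 142 mice, so the Otop1 result rests on 1 of 2 probes. Pank1, S100b, Elovl3 and Clstn3 rose by 1.07, 0.83, 0.78 and 0.73. S100b is also made by Schwann cells. It was the 1 of 15 sympathetic nerve and Schwann cell genes that rose, where 1.39% of all genes rose.

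**Figure D1:**
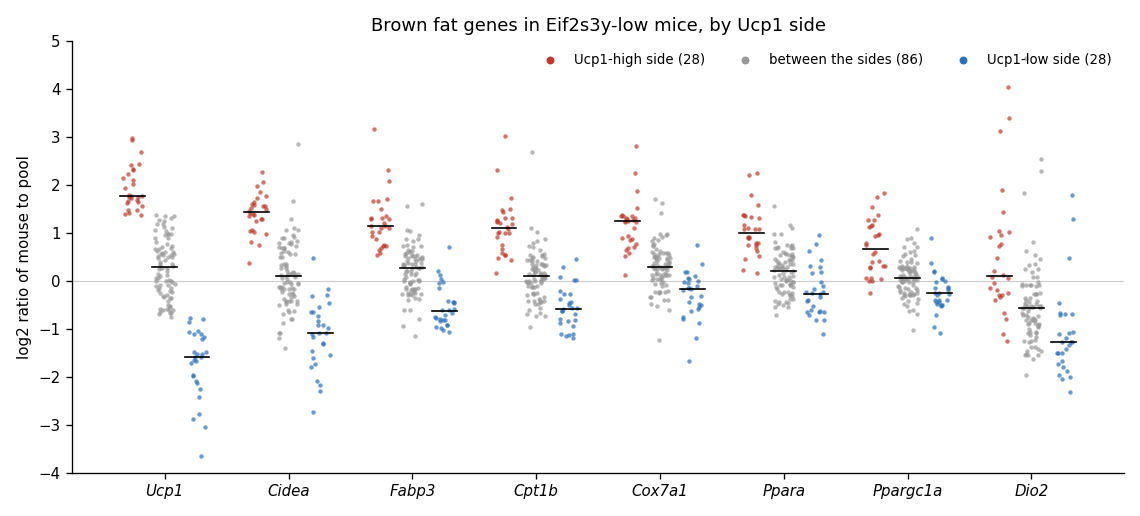
Log2 ratio of mouse to pool for Ucp1 and 7 genes that rose, with 1 point per Eif2s3y-low mouse, coloured by side, and a bar at each median. Ucp1 itself formed the sides. The Cidea medians are 1.42 and -1.09, the median of the 86 mice between the sides lies between both side medians for each gene, and Dio2 has a few Ucp1-high mice far above the rest.

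The other 18 genes of the brown fat identity list did not pass. Prdm16, a transcription factor of the brown lineage, differed by 0.05 ± 0.36 (adjusted p = 0.976), with wide ranges of -2.83 to 1.51 on the high side and -3.03 to 1.22 on the low side. Zic1, a marker of classical brown fat, differed by -0.08 ± 0.10 (limma, adjusted p = 0.86) and Lhx8, another such marker, by -0.27 ± 0.18 (adjusted p = 0.593). Ebf2, a lineage transcription factor, differed by 0.24 ± 0.10 (adjusted p = 0.219) and Pparg, the main adipocyte regulator, by 0.16 ± 0.09 (adjusted p = 0.414). The rest of the 18 lay between -0.24 for Irf4 and 0.33 for the potassium channel gene Kcnk3 (adjusted p = 0.0868), with Esrra at 0.29, Ucp3 at 0.23 and Esrrg at -0.02. Ebf3, Mpzl2, Eva1a, Cited1, Cited4, Slc29a1, Nrip1 and Bmp7 were among them, from -0.16 to 0.30. Of 10 beige fat markers none passed (median 0.13), with Tbx1 and P2rx5 both at 0.26. Of 17 white fat markers none passed either (median 0.07), and Lep differed by -0.13 ± 0.13 (limma, adjusted p = 0.798).

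Genes that handle fatty acids on their way into the mitochondrion also rose. Fabp3, a fatty acid binding protein of heart, muscle and brown fat, ran from 0.53 to 3.15 (median 1.14) on the high side and from -1.06 to 0.71 (median -0.64) on the low side. Its difference was 1.77 ± 0.13, or 3.41-fold (limma, adjusted p = 5.1e-15), a second Fabp3 probe gave 1.62, and 24 of 28 Ucp1-high mice lay above the low side. Cpt1b, the muscle and brown fat form of the enzyme that admits long-chain fatty acids to mitochondria, ran from 0.15 to 3.02 (median 1.10) against -1.19 to 0.45 (median -0.58). It differed by 1.67 ± 0.14, or 3.18-fold (limma, adjusted p = 5.38e-14), with 26 of 28 above the low side.

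Of 16 mitochondrial fatty acid oxidation genes, 8 rose and 0 fell (median 0.32), where 1.39% of all genes rose and 1.30% fell. Besides Cpt1b, the trifunctional protein subunit Hadhb rose by 0.52 ± 0.09 and the acyl-CoA dehydrogenases Acadl and Acadvl by 0.46 ± 0.09 and 0.46 ± 0.06 (limma, adjusted p = 0.00239 and 1.52e-06). Acadvl was as tight as it was small, with a range of 0.04 to 0.90 against -0.50 to 0.36 and 17 of 28 mice above the low side. Of 19 peroxisomal oxidation genes, 2 rose, Acox2 by 0.75 and Phyh by 0.33, with a median of 0.19.

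Of 14 genes of lipid uptake and glycerol use, 4 rose (median 0.17), against 1.39% of all genes: Fabp3, Acot11, Slc27a2 and Gpd2. Acot11, a thioesterase that cuts fatty acids from coenzyme A, ran from -0.11 to 2.38 (median 0.93) against -0.82 to 0.50 (median -0.28), a difference of 1.15 ± 0.12 (limma, adjusted p = 1.86e-10). Gpd2, the mitochondrial glycerol phosphate dehydrogenase, ran from -0.22 to 1.85 (median 0.77) against -0.86 to 0.21 (median -0.30), a difference of 1.08 ± 0.11 (adjusted p = 2.61e-10). In Gpd2, 24 of 28 Ucp1-high mice exceeded every low mouse. Slc27a2, a fatty acid transporter, rose by 1.08 ± 0.21, and 0 of 28 exceeded the highest low mouse, which reached 2.28. The array's Fabp4, Lpl and Cd36 probes were measured on too few arrays to be used.

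Rises in the rest of energy metabolism were frequent but small, against 1.39% of all genes that rose and 1.30% that fell. Of 25 respiratory chain and ATP synthase genes 10 rose and 0 fell, with a median of 0.22, led by complex I subunits such as Ndufa10 at 0.42 ± 0.08 (limma, adjusted p = 0.00159), Ndufb6 and Ndufs1 at 0.34 and Ndufv1 at 0.33. A second Ndufb6 probe did not pass, at 0.12. Of 15 citrate cycle genes 5 rose (median 0.28). Pdk4, the kinase that turns pyruvate dehydrogenase off, was the largest, at -0.11 to 1.41 (median 0.59) against -1.22 to 0.97 (median -0.50). Its difference was 1.04 ± 0.13 (limma, adjusted p = 4.73e-08), and only 5 of 28 mice exceeded the low side, whose top mouse stood apart from its median. Idh3g and Pdha1, an isocitrate and a pyruvate dehydrogenase subunit, rose by 0.38 each, and Idh3b and Ogdh, named after their values were seen, by 0.31 and 0.32.

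Glucose and fat making genes moved the same way, where 1.39% of all genes rose and 1.30% fell. Fewer genes of both groups were called in the checks on macrophage genes and on arrays left out below. Of 23 glucose use genes 7 rose and 0 fell (median 0.19), among them Ldhb at 0.62, Pck1 at 0.58 and the hexokinase Hk2 at 0.55 ± 0.11 (limma, adjusted p = 0.00126), while the transporter Slc2a4 stood at 0.46 (adjusted p = 0.0741). Of 16 fatty acid synthesis genes 5 rose and 0 fell (median 0.36). Elovl6, an elongase, differed by 0.94 ± 0.21 (adjusted p = 0.00905), Thrsp by 0.78 and the carbohydrate response factor Mlxipl by 0.44, and Acaca and Acacb, named after their values were seen, rose by 0.42 and 0.41. Fasn, the fatty acid synthase, did not pass, at 0.53 ± 0.20 (adjusted p = 0.179). The fructose transporter Slc2a5 rose by 1.85 ± 0.27 (limma, adjusted p = 4.87e-06), from a median of -3.05 on the low side to -0.86 on the high side, well below the pool in both.

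Adipocyte genes rose in 2 of 16 cases, Lpin1 and the lipid droplet coat Plin1, both by 0.41 (median 0.26). Plin1 was also the 1 of 7 lipolysis genes that rose (median 0.01). Over all genes 1.39% rose and 1.30% fell, so 1 or 2 calls say little about a list. Of 14 mitochondrial carriers and coenzyme Q genes 3 rose, Mpc1 by 0.48, Coq8a by 0.39 and Slc25a35 by 0.38. Of 27 mitochondrial translation and biogenesis genes 2 rose, Sirt3 by 0.37 and, named after its value was seen, Gfm1 by 0.19. Of 17 secreted factors of brown fat 3 rose, Igfbp2 by 0.73, Nrg4 by 0.66 and, named after its value was seen, Bmp8b by 0.36. Metrnl fell by 0.53 (limma, adjusted p = 0.0496). Of 14 creatine and calcium cycling genes 1 rose, the calcium pump Atp2a2, by 0.39, and Hspb1 rose among 11 unfolded protein and heat shock genes, by 0.36. Of 11 branched-chain amino acid and 14 cholesterol synthesis genes none passed, with medians of 0.19 and -0.06.

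**Figure D2:**
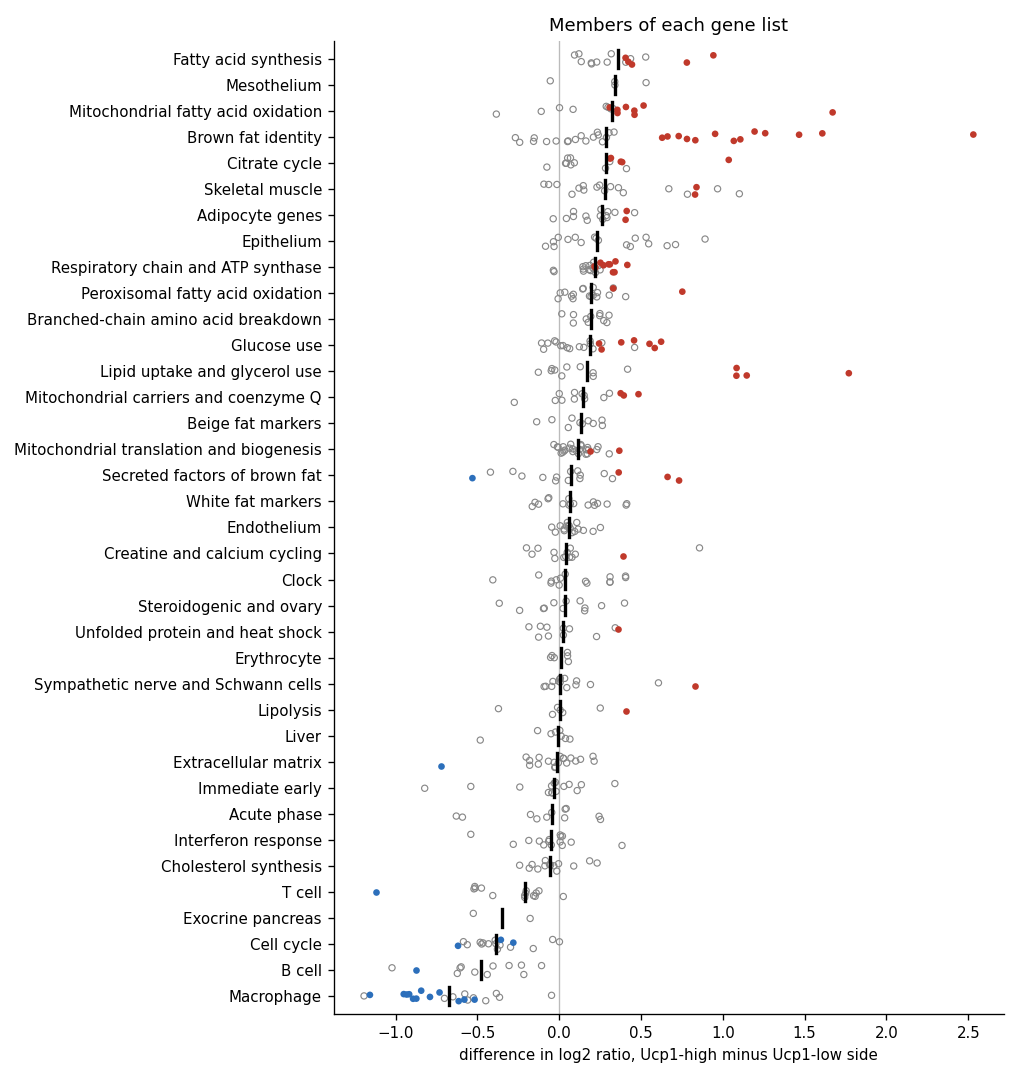
Difference in log2 ratio, Ucp1-high minus Ucp1-low mice, with 1 point per measured gene of each list. Filled points passed an adjusted p of 0.05 (red higher, blue lower), open points did not, and bars mark list medians. Brown fat identity has the largest rises, up to 2.53, while fatty acid synthesis has the highest median, 0.36, and macrophage genes have the lowest, -0.68.

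Macrophage genes were the main group that was lower in the Ucp1-high mice. All 22 measured had a negative difference and 12 fell at the adjusted threshold, with a median of -0.68, against 1.30% of all genes that fell. Itgax, which encodes the integrin CD11c, ran from -4.03 to 0.23 (median -2.56) on the high side and from -2.46 to 0.87 (median -1.18) on the low side. It fell by 1.16 on the log2 scale (SE 0.28, limma, adjusted p = 0.0179), and the low-side mean was 2.23-fold higher. The sides overlapped widely, since no Ucp1-high mouse exceeded the top low mouse but 20 of 28 lay below the low median.

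Clec7a, the β-glucan receptor of myeloid cells, ran from -3.06 to 0.54 (median -1.67) against -1.96 to 0.77 (median -0.35) and fell by 0.95 (limma, adjusted p = 0.0179). Cd84, a leukocyte surface receptor, fell by 0.93 (adjusted p = 0.022). Mmp12, the macrophage elastase, had the largest difference of the list, -1.19 ± 0.41, without passing (adjusted p = 0.111). Many of the 15 largest falls over all genes are also myeloid or lymphoid genes: Itgad (an integrin) at -1.51, Rgs1 at -1.26, Stap1 at -1.14, Il7r at -1.12, Adam8 at -1.09 and Cd200r1 at -0.96. Gdf3 (-1.49), Ubd (-1.36), F7 (-1.25), Slc37a2 (-1.04), Pkib (-1.03) and Dpep2 (-0.95) complete them.

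Other immune lists had few calls, where 1.30% of all genes fell. Of 15 T cell genes 1 fell, Il7r (median -0.21), with Cd2, Cd3g and Cd3d between -0.52 and -0.51. Of 12 B cell genes 1 fell, Blnk, by 0.87, with a median of -0.48. Of 17 cell cycle genes 3 fell, Cenpe by 0.62 and, named after their values were seen, Cdk1 by 0.36 and Bub1b by 0.28 (median -0.39), but a second Cenpe probe stood at 0.02. Of 20 extracellular matrix genes 1 fell, the protease Mmp3, by 0.72. None of 15 interferon response, 11 acute phase, 15 immediate early or 15 clock genes passed. Among the named genes of these lists, the nearest to the threshold were Egr2 at -0.82 (limma, adjusted p = 0.052), Fos at -0.24 (0.0687) and Oasl1 at -0.54 (0.0748).

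**Figure D3:**
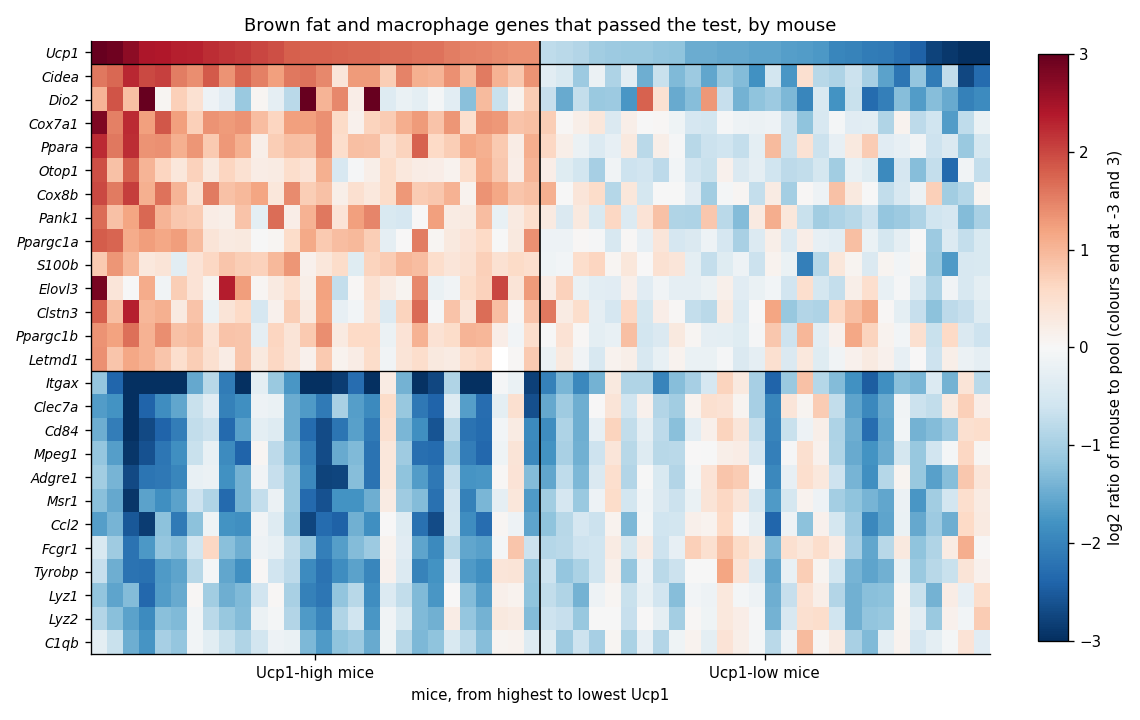
Log2 ratio of mouse to pool for Ucp1, the 13 brown fat identity genes and the 12 macrophage genes that passed, with 1 column per mouse from highest to lowest Ucp1. Brown fat genes are high on most of the left 28 columns, while macrophage genes are low on most but not all of them, and some Ucp1-high mice have macrophage levels near 0 or above.

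Along the whole Ucp1 ranking the groups behaved differently. The mice were cut into 5 rank groups from lowest to highest Ucp1. The mean over the brown fat identity list had medians of -0.21, -0.11, -0.09, 0.07 and 0.31. Each median was above the one before, but the steps were uneven, with the largest to the top group. The mean over the macrophage list had medians of -0.61, -0.65, -0.40, -0.53 and -1.48. The low macrophage level was thus seen in the top group, while the other 4 lay between -0.65 and -0.40 without a steady order. These are descriptions, and the shape was not tested. Within the top group the macrophage list ranged from -2.31 to 0.15, so individual mice with high Ucp1 had macrophage levels as high as many others.

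**Figure D4:**
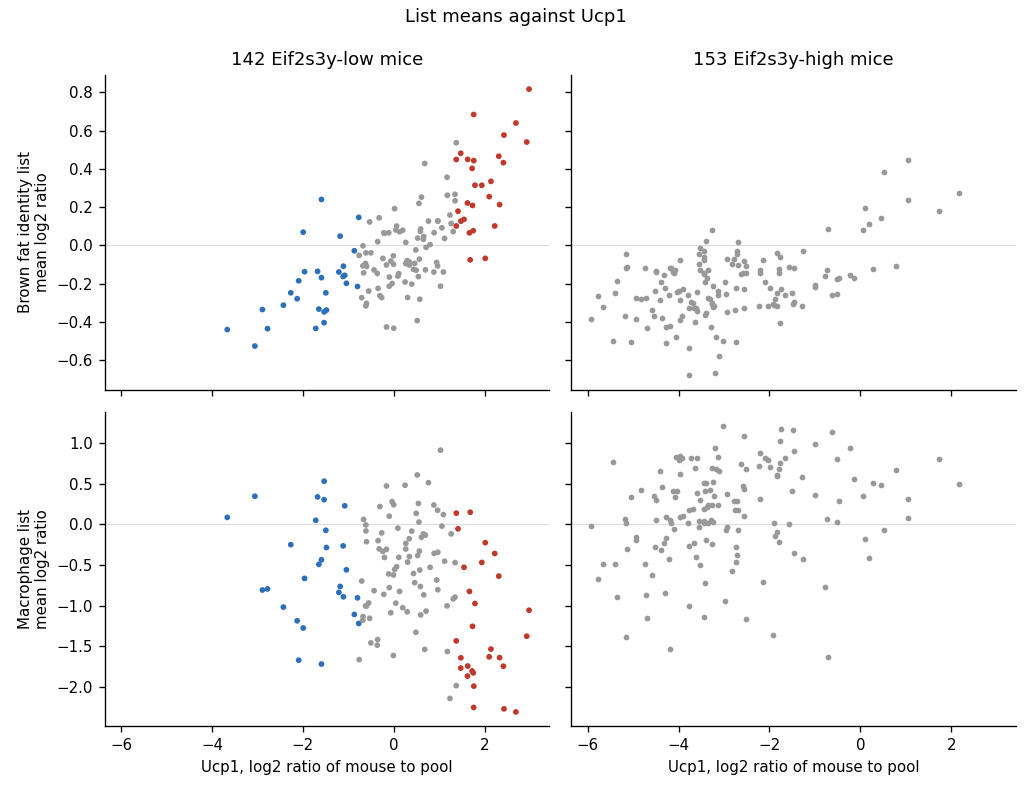
Mean log2 ratio over the 31 brown fat identity genes (top) and the 22 macrophage genes (bottom) against Ucp1, with 1 point per mouse, for Eif2s3y-low mice (left, red Ucp1-high, blue Ucp1-low, grey between) and Eif2s3y-high mice (right). In the left panels the brown list climbs along Ucp1, while the macrophage list is low mainly above a Ucp1 ratio of about 1.375, where its median is -1.48.

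The 86 mice that neither side used gave a separate look at the same relation. There 8 of 11453 genes rose with Ucp1 (0.0699%) and 0 fell. In probes these were 11 (0.0480%), and 403 probes had an unadjusted p under 0.05. The 8 are Cidea, Fabp3, Cpt1b, Cox7a1, Acot11, Gpd2, Otop1 and Letmd1, and all 8 had also risen between the sides. Per log2 unit of Ucp1, Cidea rose by 0.81 ± 0.08 (SE, limma, adjusted p = 1.64e-11), Fabp3 by 0.53 ± 0.07 (4.08e-08) and Cpt1b by 0.47 ± 0.07 (7.04e-05). Cox7a1 rose by 0.43, Acot11 by 0.38, Otop1 by 0.36, Gpd2 by 0.31 and Letmd1 by 0.19. Ucp1 spans less in these mice (SD 0.60), which limits what can pass.

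Ppara, Ppargc1a and Dio2 did not pass there, with slopes of 0.26, 0.23 and 0.23. None of the 22 macrophage genes passed either, and their slopes had a median of 0.05, with 19 of 22 positive, where all 22 differences between the sides were negative. Of the 28 Ucp1-high mice, 11 exceeded every Ucp1-low mouse in all 8 genes and 25 in at least 5, and each exceeded them in at least 1. The 8 genes were picked for rising with Ucp1 and these mice for high Ucp1, so such counts are partly built in. They are a description, and whether the genes go together within a mouse was not tested.

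Over all 142 Eif2s3y-low mice, the 5 genes with the largest correlation with Ucp1 were Cidea (Pearson r = 0.887, Spearman rho = 0.898), Fabp3 (0.825 and 0.850), Cpt1b (0.791 and 0.814), Cox7a1 (0.786 and 0.806) and Gpd2 (0.717 and 0.718). They are given as descriptions. Without the 2 mice farthest from the Ucp1 median, r stayed between 0.713 and 0.875, and within 3 ranges of mouse number between 0.673 and 0.933. In the mice between the sides r was 0.728 for Cidea and 0.489 for Gpd2. Since each value shares 1 array and 1 pool, an array-wide effect would enter both sides of such a correlation.

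The arrays of the sides looked alike in the descriptors examined. Mouse number, the share of missing values, the SD of the log2 ratios and their median gave an adjusted p of 0.6375 each (two-sided permutation tests, Benjamini-Hochberg over 4). Each of 3 ranges of mouse number held as many Ucp1-high as Ucp1-low mice (11 and 11, 8 and 8, 9 and 9), and with the range in the fit 310 probes were higher and 271 lower. Transcripts of epididymis, which mark 47 arrays of the series, were above the pool on 0 of the 56.

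Markers of other tissues differed more within the sides than between them, and a ratio to a pool has no true zero to show that a tissue is absent. Of 19 skeletal muscle genes 2 rose, Actn2 by 0.84 and myoglobin (Mb) by 0.83 (median 0.28), where 1.39% of all genes rose. The list's mean ran from -0.62 to 1.62 (median 0.25) on the high side and from -0.84 to 2.97 (median -0.31) on the low side, where 1 array stood alone at the top. Some of the largest rises are muscle genes too: Myoz2, a sarcomere protein, at 1.11 and Apobec2 at 1.20, with 0 of 28 Ucp1-high mice above the low side for either. As a covariate the muscle list's mean was taken over values standardized per gene, not over log2 ratios. With it in the fit 0.699% of genes rose and 0.244% fell. There 12 of the 13 brown fat genes were still called, all but Clstn3. Other lists kept fewer calls in that fit: 4 of 22 macrophage genes in place of 12, 2 of 25 respiratory chain genes in place of 10 and 3 of 23 glucose use genes in place of 7, with medians of -0.63, 0.21 and 0.12. Of the 15 largest falls 7 were still called, and among the rises Apobec2 was not (adjusted p = 0.13). Sprr1a, an envelope protein of epithelia, rose by 1.5 ± 0.4, and Acsm3, a fatty acid activating enzyme, by 1.47 ± 0.32. None of 18 epithelium, 4 mesothelium, 17 endothelium, 12 steroidogenic and ovary, 8 liver, 2 exocrine pancreas or 6 erythrocyte genes passed, with list medians from -0.35 for pancreas to 0.34 for mesothelium. The steroidogenic list's mean had medians of -1.70 and -1.69, but reached 2.16 and 1.79 on single arrays.

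The brown fat calls and the macrophage calls fared differently when such arrays were left out, a check added after the data were seen. Without the arrays with a muscle, pancreas or B cell list mean above 1, which left 23 Ucp1-high and 20 Ucp1-low mice, 12 of the 13 brown fat genes remained called, where 0.402% of all genes rose. The macrophage list then had 0 of 22 called and a median of -0.50, with 22 of 22 still negative, and 0 of 11453 genes fell. Without the arrays with a steroidogenic list mean above 0, which left 18 and 18, 11 of the 13 remained where 0.707% rose, and 0 of 22 macrophage genes were called (median -0.57, 22 of 22 negative) where 0.0699% fell. Calls in other lists also shrank. Without the muscle, pancreas or B cell arrays 4 of 16 fatty acid oxidation, 1 of 23 glucose use and 2 of 16 fatty acid synthesis genes were called. Without the steroidogenic arrays these were 5, 4 and 2. Fewer mice also mean less power, and the part of each was not tested.

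Fewer genes were called with the macrophage list's mean in the fit: 21 were higher (0.183%), all among the 159, and 0 lower. This mean too was taken over values standardized per gene. The macrophage genes form it themselves, so the loss of their calls was built in. Of the 13 brown fat genes 8 stayed: Cidea, Cox7a1, Ppara, Otop1, Cox8b, Ppargc1a, S100b and Letmd1. Dio2, Pank1, Elovl3, Clstn3 and Ppargc1b did not, with Dio2 at an adjusted p of 0.086. Of the 8 fatty acid oxidation calls 3 stayed, and of the 10 respiratory chain, 7 glucose use and 5 fatty acid synthesis calls 0 stayed. The differences shrank less than the calls: the list medians went from 0.29 to 0.20 for brown fat identity, from 0.32 to 0.21 for fatty acid oxidation and from 0.22 to 0.18 for the respiratory chain, where 25 of 25 were still positive. For fatty acid synthesis the median went from 0.36 to 0.14 and for glucose use from 0.19 to 0.10. Whether macrophage content has a part in the rises was not tested. The respiratory chain calls also went to 0 without the arrays high in muscle, pancreas or B cell genes.

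Forming the sides on Cidea in place of Ucp1 kept 22 of the 28 high and 20 of the 28 low mice. It gave more calls, 610 genes higher (5.33%) and 704 lower (6.15%), which include 152 of the 159 and 149 of the 149. Macrophage genes then fell in 21 of 22 cases, with a median of -0.91.

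The same cut was made in the 153 Eif2s3y-high mice, 30 against 30, which share no mouse with the sides above. Their Ucp1 level was lower, with a median of -3.25 against 0.28, so that their Ucp1-high side (median -0.52) overlaps the Ucp1-low side of the Eif2s3y-low mice. The gap was 4.51, or 22.7-fold. There 126 genes were higher (1.10%) and 150 lower (1.31%). Of the 159 genes higher in the Eif2s3y-low mice 16 were also higher there, which is 10.1% of these and 12.7% of the 126. Of the 149 lower genes 0 were also lower and 20 were higher. The counts in the Eif2s3y-high mice moved with the settings, and the overlaps were taken in 1 setting. In probes they were 199 higher and 274 lower, but 613 and 592 with sides of 25%, 57 and 244 without arrays that carry epididymal transcripts, and 314 and 294 with array medians removed.

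Some brown fat genes rose in both sets, but the list's median difference was 0.09 in the Eif2s3y-high against 0.29 in the Eif2s3y-low mice. Over all genes 1.10% rose in the Eif2s3y-high mice. In the Eif2s3y-high mice 5 of 31 rose: Cidea by 2.06 ± 0.21 (limma, adjusted p = 1.25e-09), Dio2 by 0.81, S100b by 0.70, Otop1 by 0.70 and Cox7a1 by 0.63. The interaction test found 5 of the 31 larger in the Eif2s3y-low mice, Ppargc1a, Elovl3, Cox7a1, Letmd1 and Ppara, and 1 smaller, Slc29a1, where 5.43% of all genes were larger and 5.92% smaller. For Cidea the difference between the sets was 0.47 ± 0.27 (adjusted p = 0.312). For Ppara it was 0.78 (1.26 against 0.48, adjusted p = 0.0061).

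Macrophage genes moved in opposite directions. In the Eif2s3y-high mice 6 of 22 rose with Ucp1 and 0 fell, where 1.10% of all genes rose and 1.31% fell. The median difference was 0.50, and the list's mean had medians of 0.39 on the Ucp1-high and -0.21 on the Ucp1-low side. The interaction passed for 21 of 22, all smaller in the Eif2s3y-low mice, where 5.92% of all genes were smaller. Itgax differed by 0.58 there against -1.16, and the difference between the sets was -1.74 (limma, adjusted p = 0.00089). Of the 30 mice a side, 8 and 11 carried epididymal transcripts. Without such arrays (21 against 21) 0 of the 22 passed in the Eif2s3y-high mice, where 0.341% of genes rose, their median was 0.53 with 22 of 22 positive, and the interaction passed for 20, where 5.20% of genes were smaller.

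Fat making and adipocyte genes split the same way in reverse. The fatty acid synthesis list had a median of 0.36 in the Eif2s3y-low and -0.24 in the Eif2s3y-high mice, where Fasn fell by 0.52. Of its 16 genes 8 passed the interaction, all larger in the Eif2s3y-low mice, where 5.43% of all genes were larger. Adipocyte genes had medians of 0.26 and -0.26, and 8 of 16 passed, again all larger. Over all genes 622 differences were larger and 678 smaller in the Eif2s3y-low mice, and 1278 of these 1300 had opposite signs in the sets. They include 89 of the 159 genes that rose and 139 of the 149 that fell. Which animal differences go with the 2 sets is not given in the labels, and the part of the sets' different Ucp1 levels was not tested.

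**Figure D5:**
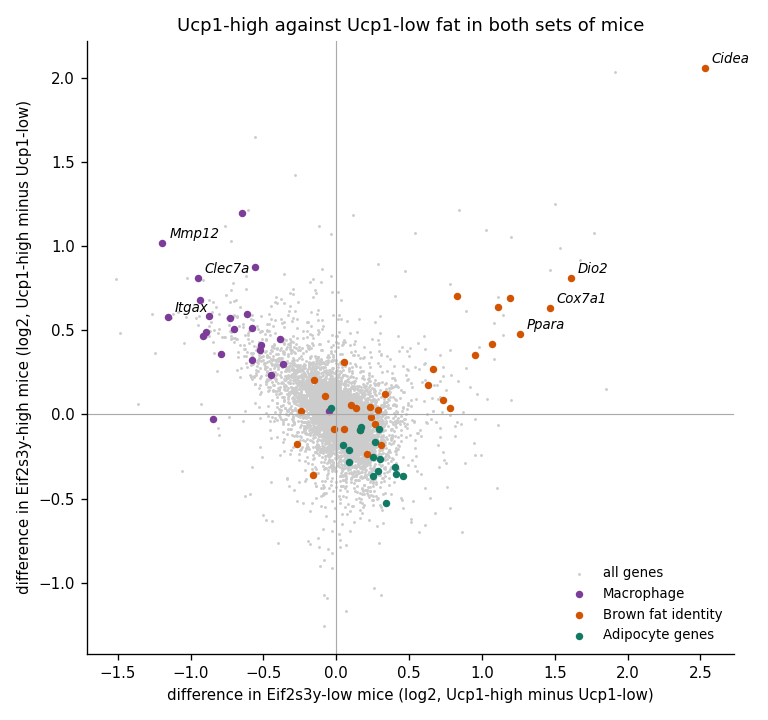
Difference between Ucp1-high and Ucp1-low mice (log2) in the Eif2s3y-high set against the Eif2s3y-low set, with 1 point per gene. Cidea lies far out in both, at 2.06 and 2.53, the macrophage genes lie mostly at the upper left and the adipocyte genes mostly at the lower right.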

How the data were processed

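The authors deposited 1 log10 ratio per probe and array for 2-colour arrays of 295 mice, 23387 probes in all. Background correction and normalization are not given in the sources used here, and base, centring and direction are not stated. The text of single samples gives 330 mice. Probe means fell with probe variance by a slope of -1.63, nearest to the -1.15 that log10 ratios of mouse over pool would give (natural log would give -0.50), so log10 is the nearest reading but not certain. The ratios lie between -2 and 2 with 1.02% missing. They were multiplied by 3.32 to give log2 ratios.

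Probes measured on at least 90% of arrays were kept (22894), named through the platform annotation and RefSeq symbols (13644 probes with 1 symbol, 48 with several, 9695 with none). A gene is its named probe with the largest SD. Tests used limma 3.58.1 in R 4.3.3 (lmFit, eBayes) with Benjamini-Hochberg over 22893 probes. The rest was done in Python 3.11.15 with pandas 2.3.3, SciPy 1.17.1, NumPy 2.4.6 and, for plots, matplotlib 3.10.9. Descriptors were compared with 100000 permutations. The members and the 37 gene lists (814 genes, 544 measured) were chosen with earlier results of these data known.

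Genes were named by a rule: Ucp1, Cidea, Eif2s3y, Lep, every measured brown fat identity gene, the 15 largest called differences each way, the 4 largest absolute differences in every other list, the 5 largest called interactions each way and the 5 genes most correlated with Ucp1. On simulated data of this comparison over 22893 probes, shifts of 0.25, 0.5, 1.0 and -0.5 log2 were recovered for 54%, 90%, 98% and 88% of 50 probes each. The simulated noise was independent between probes and the shifted probes were drawn at random. These shares therefore need not hold for highly variable genes such as Mmp12. Alternatives changed the filter, the centring, the cut, the ranking gene, the covariates, the variance moderation and the arrays used. List means used as covariates were taken over values standardized per gene across all arrays.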

Additional observations from a re-analysis of the deposited data

Results flagged for a closer look

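For 93 named genes the difference between Ucp1-high and Ucp1-low mice was not the same in the Eif2s3y-low and the Eif2s3y-high mice by the interaction test (limma, adjusted p from 0.0003997 to 0.0493). In 79 of them the signs were opposite. Over all 11453 genes 5.43% of differences were larger and 5.92% smaller in the Eif2s3y-low mice. Of the 1300 genes that passed, 1278 had opposite signs. Some genes were named because they passed this same test or had a large difference between the sides, so the count is partly built in. Without arrays with epididymal transcripts 81 kept their call and 93 their sign. No explanation was tested. Values below are the difference in the Eif2s3y-low minus that in the Eif2s3y-high mice, in log2 units. Each is from 1 probe per gene. Between the Eif2s3y-low sides, second probes of Cenpe, Top2a and Ahsg differed by 0.02, -0.17 and -0.0006. The named probes differed by -0.62, -0.48 and -0.48. Other TDRD9 probes stood at -0.12 and 0.04, against -0.77. Those of Tk1 and Oas1a stayed close, at -0.53 against -0.59 and -0.28 against -0.28.

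Values were above 0 for 52 genes. Among brown fat and fatty acid oxidation genes they were 0.60 for Ppargc1a, 0.74 for Elovl3, 0.83 for Cox7a1, 0.46 for Letmd1, 0.78 for Ppara, 0.69 for Fabp3, 0.75 for Cpt1b, 0.67 for Acot11, 0.76 for Gpd2, 0.43 for Hadhb, 0.42 for Acadl and 0.75 for Ehhadh. Among fat cell, fat making and cholesterol synthesis genes they were 0.76 for Hoxc8, 0.65 for Tcf21, 0.83 for Slc2a4, 0.76 for Lpin1, 0.72 for Plin1, 0.87 for Car3, 1.11 for Elovl6, 1.33 for Thrsp, 1.04 for Fasn, 0.57 for Mlxipl and, for cholesterol synthesis, 0.64 for Fdps. Mitochondrial and glucose genes had 0.94 for Pdk4, 0.63 for Pdk2, 0.45 for Ndufa10, 0.38 for Ndufb6, 0.54 for Mpc1, 0.39 for Coq8a, 0.47 for Slc25a35, 0.44 for Coq7, 0.41 for Sirt3, 0.54 for Mfn2, 0.52 for Aldh6a1, 0.56 for Atp2a2, 0.68 for Ldhb, 0.94 for Pck1 and 0.66 for Hk2. The rest were 0.64 for Nrg4, 0.41 for Nefl, 0.88 for Mb, 1.17 for Myoz2, 0.65 for Kdr, 0.51 for Gpihbp1, 0.41 for Flt1, 0.25 for Sox17, 0.44 for Timp3, 0.64 for Mx1, 0.74 for Hspb1, 0.79 for Orm1, 1.57 for Cyp2e1 and 1.16 for Chst1.

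Values were below 0 for 41 genes. Macrophage genes and the largest falls had -2.32 for Itgad, -1.97 for Gdf3, -1.42 for Ubd, -1.86 for Rgs1, -1.62 for F7, -1.74 for Itgax, -1.71 for Stap1, -1.72 for Il7r, -1.70 for Adam8, -1.47 for Slc37a2, -1.61 for Pkib, -1.54 for Cd200r1, -1.76 for Clec7a, -1.48 for Dpep2, -1.61 for Cd84 and -2.22 for Mmp12. Lymphocyte and cell cycle genes had -1.10 for Cd3g, -0.91 for Cd3d, -1.83 for Cd22, -1.34 for Blnk, -0.93 for Cenpe, -0.81 for Tk1, -0.79 for Birc5 and -0.72 for Top2a. The rest were -0.36 for Slc29a1, -0.67 for Hilpda, -0.75 for Slc6a8, -0.88 for Metrnl, -0.67 for Pltp, -1.75 for Mmp3, -0.55 for Fshr, -0.92 for Ahsg, -1.08 for Egr2, -1.05 for Atf3, -0.41 for Fos, -0.87 for Oasl1, -0.51 for Oas1a, -0.50 for Oasl2, -0.40 for Hsp90b1, -2.21 for Ifi202b and -1.89 for TDRD9.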

How the results depend on the processing

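Of 231 lower and 296 higher probes, the lower ones depended far more on the settings. Higher and lower probes were 63 and 5 with sides of 10%, 485 and 383 for the slope over all Eif2s3y-low mice, and 1096 and 1130 with sides formed by Cidea. They were 137 and 15 with the first principal component as covariate, 33 and 0 with the macrophage list's mean (707 probes at an unadjusted p under 0.05), and 144 and 38 with the muscle list's mean. Added after seeing the data, leaving out arrays high in muscle, pancreas or B cell genes gave 70 and 1, and leaving out arrays high in steroidogenic genes 157 and 13. Both leave fewer mice, and the cause was otherwise not tested. With array medians removed 277 were higher and 269 lower, so 50.7% of calls were higher in place of 56.2%. The other filters, sides of 25%, mouse number ranges and robust moderation stayed within 1.5 times. Of the 13 brown fat calls, 8 to 13 held under each alternative (12 of 12 with Cidea sides). Of the 15 largest falls, 7 held with the muscle mean and 0 with sides of 10%, the principal component, the macrophage mean or either set of arrays left out. Itgax, Clec7a and Cd84 are part of the macrophage mean, so their loss with it was largely fixed in advance. Adam8 (0.0042) and Metrnl (0.036) turned positive with the macrophage mean in the fit. Counts between the sides (11 or 12 probes) and between the Eif2s3y sets (2121, from 2016 to 2510) kept their size, but those within the Eif2s3y-high mice did not (473 probes, from 301 to 1205). No paired analysis was possible because all mice form 1 group and the rule, not the labels, made the sides.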
